A study of Mus musculus with 6 samples.

Results

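The heat shock and endoplasmic reticulum (ER) chaperone genes were followed in Müllerian ducts of mouse embryos bred to lose the Hippo kinases LATS1 and LATS2, and in controls. The set of 38 genes was chosen by name, and 32 of them had a row with that gene symbol among the 22206 transcript clusters of the array. Of the 32, 18 encode cytosolic or mitochondrial chaperones or heat shock factors and 14 belong to the ER. Dnaja1, Dnajb5, Hsf1, Hsp90ab1, Hspa8 and Pdia4 were not analysed here. The mutant group held 3 samples, each labelled as a mouse embryo, with floxed Lats1 and Lats2 alleles and 1 Cre allele at the Amhr2 locus (Lats1f/f,Lats2f/f,Amhr2cre/+), and the control group held 3 with the floxed alleles and no Cre (Lats1f/f,Lats2f/f), all at E17.5, late in gestation. Cre is driven by Amhr2, whose expression lies in the mesenchyme around the duct, so the epithelium is not its target, and the presence of Cre or the change at the Amhr2 locus cannot be told apart from the loss of the kinases. Ducts were frozen before RNA extraction, and 1 Affymetrix array per sample gave a log2 signal for every gene.

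Chaperones bind unfolded proteins and help them reach or regain their fold. In the cytosol, HSP70 proteins work with J-domain partners, which load substrates, and with HSP110 proteins and BAG proteins, which release them, while HSP90 completes the folding of many signalling proteins and small heat shock proteins hold unfolded chains until HSP70 arrives. The heat shock factor HSF1 switches many of these genes on together when proteins unfold. In the ER a separate set, led by BiP (Hspa5) and GRP94 (Hsp90b1), is raised by the unfolded protein response through the sensors IRE1, ATF6 and PERK. The LATS kinases restrain YAP and TAZ, which act on genes through TEAD factors.

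Lats1 was at 11.12, 11.77 and 11.60 in mutant and at 12.51, 12.13 and 12.20 in control ducts, with a log2 fold change of -0.78 ± 0.21 (SE, limma, adjusted p = 0.0958). Lats2 was at 11.63, 11.95 and 11.32 in mutant and at 11.49, 11.58 and 11.17 in control ducts. Where the probes lie relative to the floxed exons was not stated, so these rows do not check the genotypes. Amhr2, the Cre locus, was at 6.92, 7.52 and 6.54 in mutant and at 10.88, 10.51 and 10.80 in control ducts, a log2 fold change of -3.73 ± 0.25 (adjusted p = 0.000112). Arrays had similar medians (6.87 to 6.95), and their background probes had medians of 5.35 to 5.88. All 7 measured Müllerian mesenchyme markers and all 8 epithelial markers lay above background on every array. The mesenchyme markers, Amhr2 among them, averaged between 11.05 and 11.69 in mutant and between 12.23 and 12.50 in control ducts. Of the 7, 6 were lower in value in mutant ducts, and in 4 the groups did not overlap, against 10.2% of all rows. By limma 5 had an unadjusted p under 0.05, against 15.3% of all rows, and 1, Amhr2, passed the test. Hoxa11 was next, at -1.09 ± 0.26 (limma adjusted p = 0.0557). The part of a change in mesenchyme in the results was not tested. Control 3 stood apart from the other controls. Its 8 urothelial markers averaged 10.25, against 6.06 and 6.30 in control 1 and control 2, and its 10 smooth muscle markers averaged 10.98, against 8.23 and 9.27. Mutant 3 differed from the other mutants as well. Its 2 erythroid markers averaged 10.36, against 7.02 and 7.06 in mutant 1 and mutant 2, and its 8 epithelial markers averaged 8.85, against 9.78 and 9.72. Over all rows tested, 3.26% passed limma's test at an adjusted p under 0.05, 2.59% as higher in mutant ducts and 0.666% as lower, and the median log2 fold change was -0.01. With 3 arrays in each group, their number limits the precision.

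The inducible HSP70 genes rose in mutant ducts, as did Hspa2, Hspa4l and the small heat shock gene Cryab. Of the 14 ER members 0 passed the test, against 3.26% of all rows, and a count of 0 among 14 is near that share. Their log2 fold changes were above 0 in 13 (92.9%), against 48.5% of all rows. Hspa1a rose 5.04-fold, Hspa1b 5.93-fold, Hspa2 2.45-fold, Hspa4l 2.42-fold and Cryab 3.89-fold. Altogether 5 of the 32 measured members (15.6%) were called higher, against 2.59% of all rows, and 0 were called lower, against 0.666%. All 5 were among the 18 cytosolic and mitochondrial genes. By limma at an unadjusted p under 0.05, 11 members differed, against 15.3% of all rows. The number called was 3 without control 1, without control 2 or without mutant 1, 4 without mutant 2 or without mutant 3, and 6 without control 3. Mutant and control arrays did not overlap in 14 members, against 21.1% of all rows. Of these, 13 (40.6%) were higher in mutant ducts, against 10.9% of all rows, and Bag3 was lower, against 10.2%. The median log2 fold change was 0.37 over the cytosolic and mitochondrial members and 0.26 over the ER members. In whole ducts, a change in the number of cells of a type and a change in RNA per cell cannot be told apart.

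**Figure D1:**
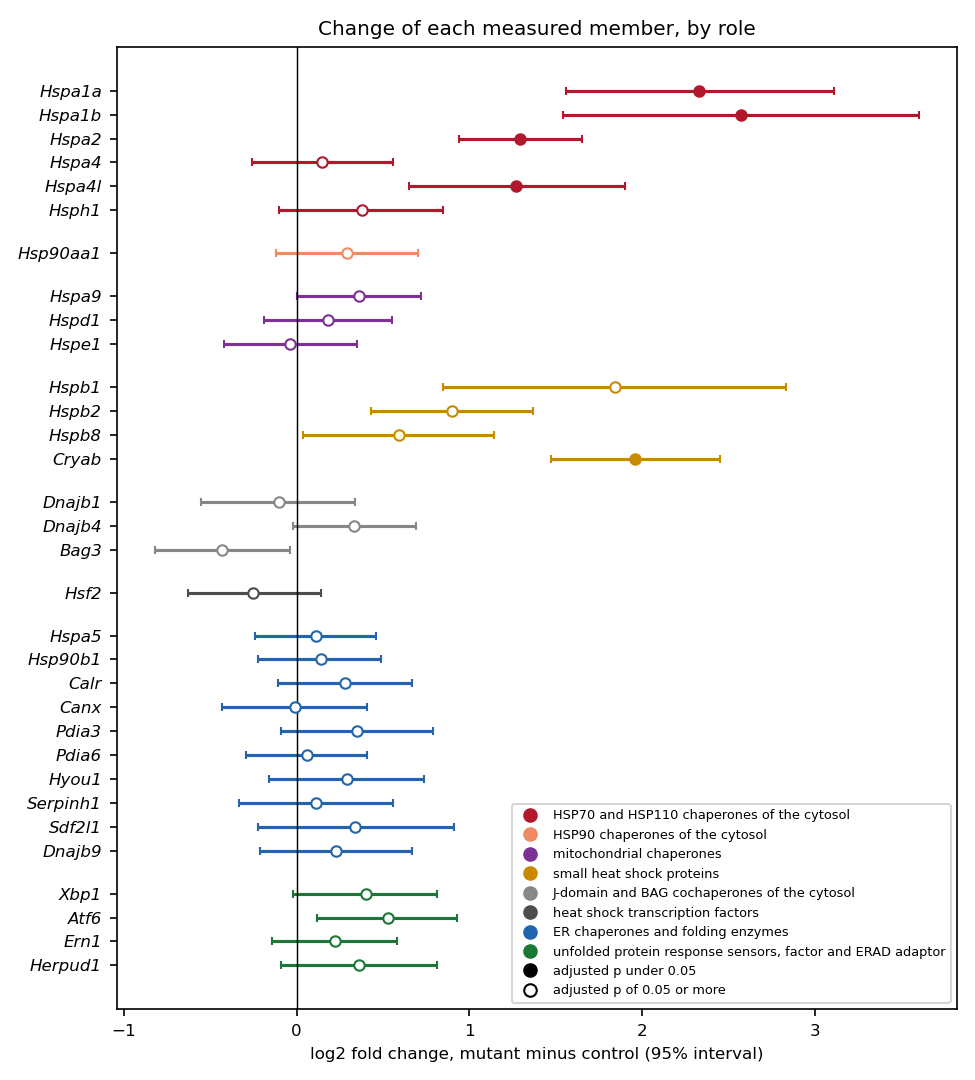
Log2 fold change of the 32 measured members, mutant minus control, with 95% intervals from limma's moderated spread, grouped by role; filled points had an adjusted p under 0.05. Hspa1a, Hspa1b, Hspa2, Hspa4l and Cryab are filled, and the ER chaperones lie between -0.01 and 0.35.

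Hspa1a and Hspa1b encode the stress-inducible cytosolic HSP70, and they are neighbours on chromosome 17. Hspa1a was at 10.53, 9.74 and 11.20 in mutant ducts, against 7.75, 8.26 and 8.45 in control ducts. The lowest mutant array lay above the highest control array. Its log2 fold change was 2.33 ± 0.34 (SE, limma adjusted p = 0.0064), and the call held whichever of the 6 arrays was left out (adjusted p from 0.00316 to 0.0319). Hspa1b was at 9.47, 8.45 and 10.72 in mutant ducts, against 6.96, 6.93 and 7.04 in control ducts. The mutant arrays spread far more widely for Hspa1b (SD 1.14, n = 3) than the control arrays (SD 0.06, n = 3). Its log2 fold change was 2.57 ± 0.46 (SE, adjusted p = 0.0163), and the call was lost without mutant 1 (adjusted p = 0.0582), control 1 (0.0653) or control 2 (0.0697). The proteins are nearly identical, and how far the probes of either row also bind the other transcript was not tested.

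The stretches printed next are RefSeq's 250 bases before the transcription start in build GRCm38.p6, written 5′ to 3′. They are shown because heat shock factors bind inverted repeats of a short unit, here searched as GAANNTTC or TTCNNGAA (2 units) and as GAANNTTC followed at once by NNGAA (3 units), on both strands. Capitals mark the 2-unit matches for Hspa1a (chr17:34972157-34972406, minus strand), Hspa1b (chr17:34959239-34959488, minus strand) and Hspb1 (chr5:135887669-135887918, plus strand), and the overlapping 3-unit matches for Hspe1 (chr1:55087898-55088147, plus strand).
Hspa1a: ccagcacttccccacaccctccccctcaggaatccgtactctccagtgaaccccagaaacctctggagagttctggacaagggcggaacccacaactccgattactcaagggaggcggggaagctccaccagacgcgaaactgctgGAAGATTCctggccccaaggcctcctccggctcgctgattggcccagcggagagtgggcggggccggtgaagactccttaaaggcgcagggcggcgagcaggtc
Hspa1b: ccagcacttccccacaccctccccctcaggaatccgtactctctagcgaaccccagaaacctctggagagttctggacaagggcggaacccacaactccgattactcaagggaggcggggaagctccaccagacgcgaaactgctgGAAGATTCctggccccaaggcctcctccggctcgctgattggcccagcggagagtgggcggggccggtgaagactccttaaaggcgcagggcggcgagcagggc
Hspb1: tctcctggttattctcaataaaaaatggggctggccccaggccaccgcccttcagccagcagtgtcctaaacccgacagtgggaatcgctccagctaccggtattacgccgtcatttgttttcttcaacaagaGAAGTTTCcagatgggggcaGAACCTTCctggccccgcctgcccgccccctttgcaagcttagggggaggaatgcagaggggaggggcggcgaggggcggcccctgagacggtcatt
Hspe1: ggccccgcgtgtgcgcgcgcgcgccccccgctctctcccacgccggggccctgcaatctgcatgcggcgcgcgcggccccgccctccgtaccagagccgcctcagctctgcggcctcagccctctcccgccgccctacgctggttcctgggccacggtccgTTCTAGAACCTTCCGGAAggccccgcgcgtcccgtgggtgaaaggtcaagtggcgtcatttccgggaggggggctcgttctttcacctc
The Hspa1a and Hspa1b stretches were identical at 247 of 250 positions, and each held 1 match to GAANNTTC beginning at position -104 from the start. Hspb1 held 2 matches to GAANNTTC, at positions -117 and -97. Over the windows from 250 bases before to 50 bases after the start, 26 of the 32 measured members had a promoter in the table. GAANNTTC was found in 8 of them (Bag3, Hspa1a, Hspa1b, Hspb1, Hspb8, Hspd1, Hspe1 and Hsph1), against 7.86% of all 32851 promoters. TTCNNGAA was found in 4 of them and 8.52% of all promoters. The 3-unit form, which contains both 2-unit forms, was found in Hspd1, Hspe1 and Hsph1, against 0.603% of all promoters. Hspd1 and Hspe1 are neighbours, and whether their matches are 1 shared run was not tested. Members are counted as genes, while the shares are of promoters, of which a gene can have more than 1. None of Hspd1, Hspe1 and Hsph1 passed the expression test, and Hspa1a and Hspa1b, with 1 exact short match each, did. Only exact GAA and TTC units were searched, so units with other letters were not counted. The matches therefore do not rank the genes, and their part in the changes was not tested. Hspa2 and Hspa4l, which also passed, held no match to any of the 3 forms in this window. Atf6, Cryab, Hsp90aa1, Hspa9, Hspb2 and Hyou1 were not searched. The TEAD motif GGAATG, searched on both strands, lay in the windows of Hspb1, Pdia6 and Ern1, against 14.7% of all promoters. A match shows that the letters are there, not that a factor binds.

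Hspa2 encodes an HSP70 that is abundant in male germ cells and present at lower levels elsewhere. It was at 7.44, 7.25 and 7.36 in mutant ducts, against 6.06, 6.16 and 5.95 in control ducts. The groups did not overlap and both were tight, with SDs of 0.09 in mutant and 0.10 in control ducts (n = 3 each). Its log2 fold change was 1.29 ± 0.16 (SE, limma adjusted p = 0.00239), and the call held in all 6 fits that left out 1 array. Of 5 germ cell markers, none passed the test, and 3 of them lay below background on all arrays. Hspa4l, an HSP110-type protein that helps HSP70 release its substrates, was at 8.09, 7.97 and 8.14 in mutant ducts, against 6.79, 6.18 and 7.40 in control ducts. The groups did not overlap, but the controls were spread over more than 1 log2 unit. Its log2 fold change of 1.27 ± 0.28 (SE, adjusted p = 0.0421) kept its call without control 3 (adjusted p = 0.00702) and lost it without any other array (0.0869 to 0.133).

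The other HSP110 proteins and HSP90 did not pass the test. Hsph1, which is also strongly heat-inducible, had a log2 fold change of 0.38 ± 0.21 (SE, limma adjusted p = 0.453), with arrays at 11.32, 11.18 and 11.64 in mutant and 11.03, 10.67 and 11.31 in control ducts. Hspa4, the more constant member of the family, differed by 0.15 ± 0.18 on that scale (adjusted p = 0.773). Hsp90aa1, the inducible cytosolic HSP90, was at 15.73, 15.37 and 15.90 in mutant and at 15.28, 15.42 and 15.42 in control ducts. Its groups overlapped, and the log2 fold change was 0.29 ± 0.18 (adjusted p = 0.514, 95% interval -0.12 to 0.70).

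**Figure D2:**
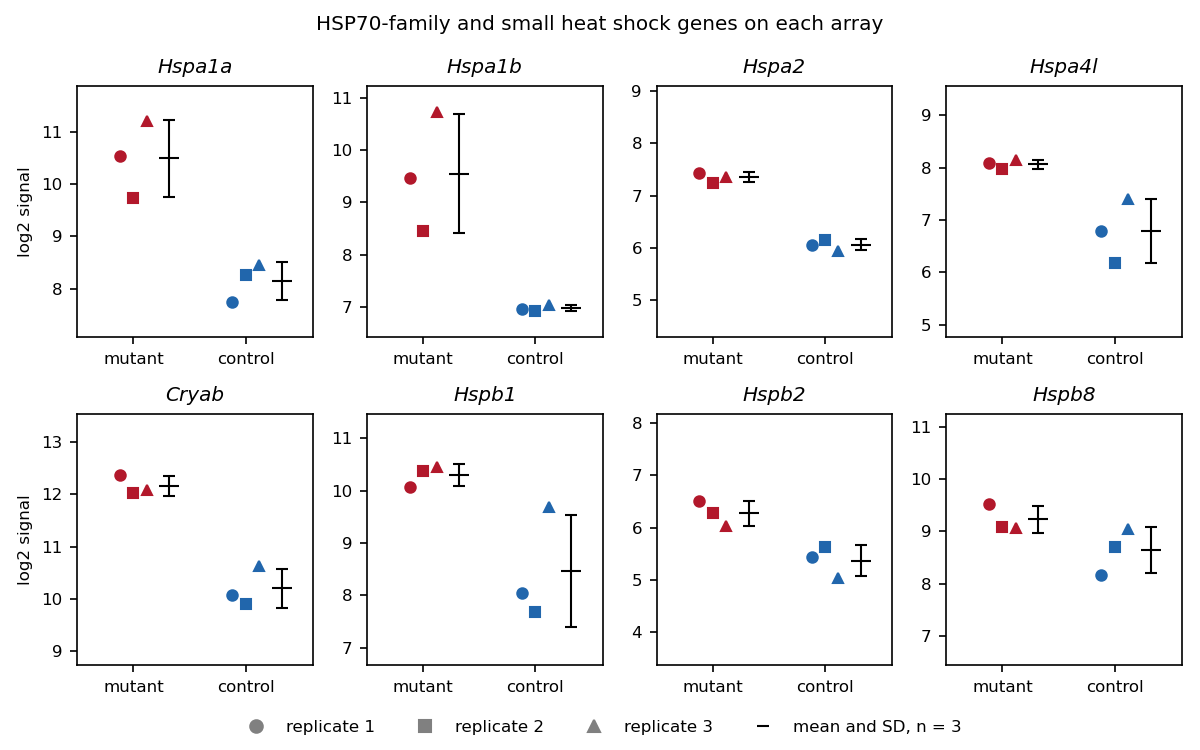
Log2 signal of 4 HSP70-family genes and the 4 small heat shock genes on each array (symbols mark the replicate), with the mean and SD of each group; every panel spans the same range of log2 units. Hspa1a and Hspa1b vary most among the mutant arrays, and Hspb1 among the controls, where control 3 is at 9.68.

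The 4 small heat shock genes all had mutant arrays above all control arrays, against 10.9% of all rows. Of the 4, 1 passed the test as higher, against 2.59% of all rows. Cryab, αB-crystallin, a chaperone of intermediate filaments that is abundant in lens and muscle, was at 12.37, 12.03 and 12.08 in mutant ducts, against 10.07, 9.91 and 10.63 in control ducts. It rose by 1.96 ± 0.22 (SE) on the log2 scale, with the smallest adjusted p of the members (limma, 0.00143), and the call held in all 6 fits that left out 1 array (0.000752 to 0.00994). Hspb1, HSP27, which caps and stabilises actin filaments besides holding unfolded proteins, was at 10.07, 10.37 and 10.46 in mutant ducts, against 8.04, 7.68 and 9.68 in control ducts. Control 3 was the control nearest to the mutants. Over all arrays the log2 fold change was 1.84 ± 0.44 (SE, adjusted p = 0.0601), and without control 3 it was 2.44 (adjusted p = 0.000671). Hspb2, the neighbour of Cryab on chromosome 9 and a partner of muscle kinases, was at 6.51, 6.27 and 6.03 in mutant ducts, against 5.44, 5.63 and 5.04 in control ducts. It lay below background on 2 control arrays, and its log2 fold change was 0.90 ± 0.21 (adjusted p = 0.0554). Hspb8, which works with BAG3 in selective autophagy, differed by 0.59 ± 0.24 on the log2 scale (adjusted p = 0.289), and its lowest mutant array (9.07) lay just above control 3 (9.04).

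Small heat shock genes are abundant in muscle, and smooth muscle markers moved with control 3. The mean log2 signal of the 4 small heat shock genes was between 9.41 and 9.62 in mutant ducts, against 7.93, 7.98 and 8.60 in control 1, control 2 and control 3. The mean log2 signal of the 10 smooth muscle markers ranged from 9.42 to 9.86 in mutant and from 8.23 to 10.98 in control ducts. Of these markers only Tagln passed, with a log2 fold change of 2.92 ± 0.30 (SE, limma adjusted p = 0.00108). Acta2, smooth muscle actin, was at 17.85, 17.67 and 17.85 in mutant ducts, against 14.04, 15.76 and 17.57 in control ducts (adjusted p = 0.191). Neither Tagln nor Acta2 had overlapping groups. Of the 10 log2 fold changes, 4 were above 0 and 6 below, with a median of -0.15. Myocd and Des had the next smallest p and were lower in value in mutant ducts. Their log2 fold changes were -1.31 ± 0.51 (limma adjusted p = 0.255) and -0.31 ± 0.16 (adjusted p = 0.405), and Myocd lay below background on 3 mutant arrays and 1 control array. Hspb6, a small heat shock gene of smooth muscle outside the set that was named after its values were seen, was at 10.29, 10.39 and 10.09 in mutant ducts, against 9.63, 10.02 and 13.70 in control ducts. Its groups overlapped. The part of smooth muscle in the values of Cryab, Hspb1, Hspb2 and Hspb8 was not tested.

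**Figure D3:**
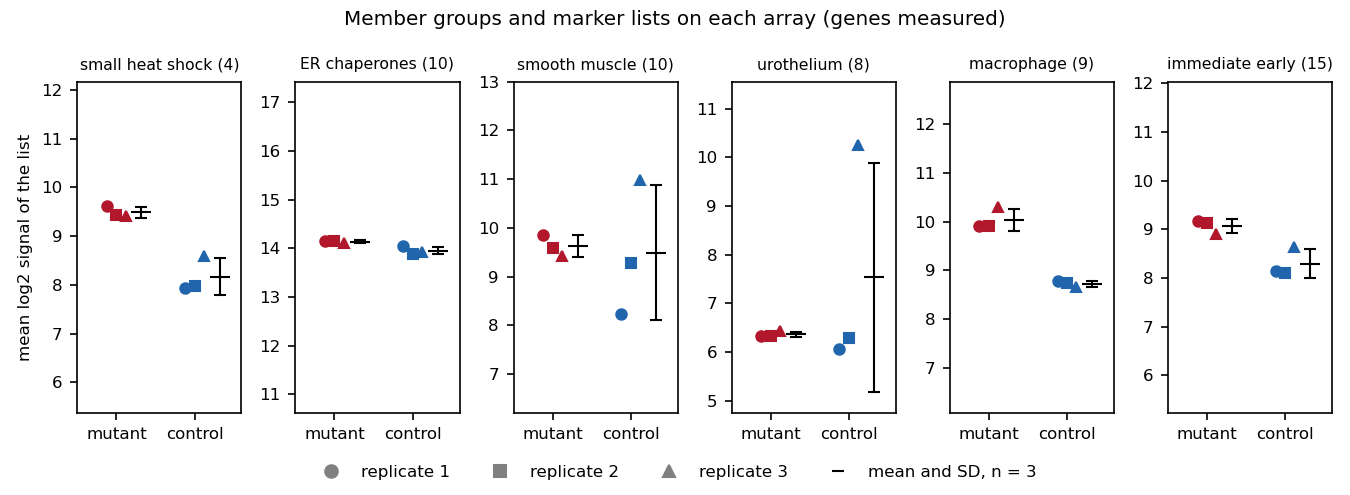
Mean log2 signal per array of the small heat shock and ER chaperone members and of marker lists, with the number of genes measured in brackets, symbols for the replicate and the mean and SD of each group; every panel spans the same range. Control 3 is the highest control for small heat shock, smooth muscle, urothelial and immediate early genes, and macrophage markers separate the groups.

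None of the 3 measured cochaperones of HSP70 passed the test, against 3.26% of all rows. Dnajb1, the heat-inducible J-domain partner of HSP70, was at 10.36, 10.12 and 9.97 in mutant ducts, against 9.99, 10.54 and 10.23 in control ducts. Its groups overlapped, with a log2 fold change of -0.10 ± 0.20 (SE, limma adjusted p = 0.859) and a 95% interval from -0.55 to 0.34. Bag3, the stress-inducible nucleotide exchange factor that binds HSP70 and HSPB8, was at 8.86, 8.74 and 9.11 in mutant ducts, against 9.27, 9.23 and 9.48 in control ducts. It was the single member whose mutant arrays all lay under the control arrays, with a log2 fold change of -0.43 ± 0.17 (adjusted p = 0.278). Dnajb4, another J-domain protein, differed by 0.33 ± 0.16 on the log2 scale (adjusted p = 0.359), with mutant arrays from 11.10 to 11.24 above control arrays from 10.73 to 10.95. Hsf2, a heat shock factor active in development, had overlapping groups and differed by -0.25 ± 0.17 on the log2 scale (adjusted p = 0.562). The intervals of Dnajb1, Hsph1 and Hsp90aa1 all ended below 1, whereas those of Hspa1a and Hspa1b began at 1.56 and 1.54.

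None of the 3 mitochondrial chaperones passed the test, against 3.26% of all rows. Hspa9, the mitochondrial HSP70, had mutant arrays from 11.81 to 11.99 above control arrays from 11.46 to 11.65, and a log2 fold change of 0.36 ± 0.16 (SE, limma adjusted p = 0.322). Hspd1 and Hspe1 encode the chaperonin HSP60 and its lid HSP10, and they are neighbours on chromosome 1. Their log2 fold changes were 0.18 ± 0.16 (adjusted p = 0.667) and -0.04 ± 0.17 (adjusted p = 0.946), and their groups overlapped. The Hspe1 stretch printed earlier, with its run of heat shock units, ends at the Hspe1 start.

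Hspa1a and Hspa1b were both highest in mutant 3, intermediate in mutant 1 and lowest in mutant 2. The same order was found in 8 of the 32 members, against 17.9% of all rows, namely Hspa1a, Hspa1b, Hspa4l, Hsph1, Hsp90aa1, Bag3, Pdia6 and Serpinh1. Of these genes Hsph1, Hsp90aa1, Bag3, Pdia6 and Serpinh1 did not pass the test, and Bag3 was lower in value in mutant ducts. Of the other inducible genes, Hsph1, Hsp90aa1 and Bag3 thus shared the order, and Dnajb1 and Hspb1 did not. Dnajb1 was lowest in mutant 3 (9.97), and Hspb1 was lowest in mutant 1 (10.07). On mutant 3 the erythroid mean was 10.36 and the epithelial mean 8.85, as given earlier. Macrophage markers were highest there, with a mean of 10.29, against 9.90 and 9.91 in mutant 1 and mutant 2, and the immediate early genes were lowest (8.91, against 9.17 and 9.14). Their part in the Hspa1a and Hspa1b values of mutant 3 was not tested.

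**Figure D4:**
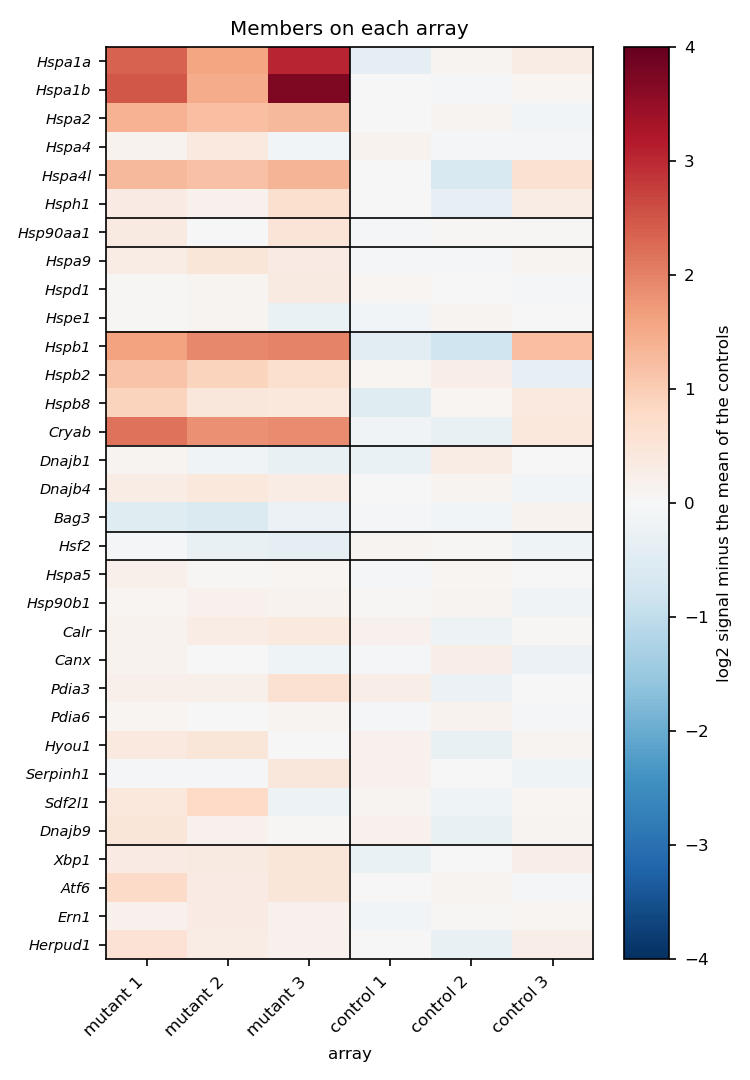
Log2 signal of each measured member on each array, minus the mean of the 3 control arrays; red is higher and blue lower, and lines separate the roles in the order of the plot of changes by role. Hspa1a and Hspa1b are reddest in mutant 3, Cryab is evenly red over the mutants, and the ER rows stay pale.

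ER chaperones take part in the folding of secreted and membrane proteins. Of the 10 measured, 0 passed by limma, against 3.26% of all rows, and 0 had an unadjusted p under 0.05, against 15.3%. With 10 genes, neither count is far from its share. Hspa5, the ER HSP70 and standard readout of ER stress, was at 17.46, 17.28 and 17.34 in mutant ducts, against 17.19, 17.31 and 17.24 in control ducts. The groups overlapped, and the log2 fold change of 0.11 ± 0.15 (SE, adjusted p = 0.799) had a 95% interval from -0.24 to 0.46. Hsp90b1, the ER HSP90, was at 16.64, 16.72 and 16.70 in mutant ducts, against 16.59, 16.65 and 16.42 in control ducts, which differed by 0.14 ± 0.16 on the log2 scale (adjusted p = 0.752). Calr and Canx, the lectin chaperones of glycoproteins, had log2 fold changes of 0.28 ± 0.17 (adjusted p = 0.504) and -0.01 ± 0.19 (adjusted p = 0.99). The disulphide isomerases Pdia3 and Pdia6 were at 0.35 ± 0.20 and 0.06 ± 0.16 on the same scale. Serpinh1, the chaperone of procollagen, was at 13.28, 13.24 and 13.78 in mutant ducts, against 13.49, 13.31 and 13.15 in control ducts, so that its groups overlapped (log2 fold change 0.11 ± 0.20, adjusted p = 0.846). Hyou1, the ER exchange factor of BiP, and the BiP partners Dnajb9 and Sdf2l1 had log2 fold changes of 0.29, 0.23 and 0.34. The highest upper end of the 10 intervals was 0.91, that of Sdf2l1, so none of them reached 1, a 2-fold change. The mean log2 signal of the 10 genes was between 14.10 and 14.16 in mutant and between 13.89 and 14.04 in control ducts, a small shift in which the arrays did not overlap although those of each single gene did.

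Many ER chaperone promoters carry the ER stress response element, to which ATF6 binds together with NF-Y, and the 250 bases before the start of Hspa5 (chr2:34771840-34772089, plus strand) and Hsp90b1 (chr10:86705445-86705694, minus strand) are printed to show it, with every match to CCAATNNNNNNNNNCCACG, on either strand, in capitals.
Hspa5: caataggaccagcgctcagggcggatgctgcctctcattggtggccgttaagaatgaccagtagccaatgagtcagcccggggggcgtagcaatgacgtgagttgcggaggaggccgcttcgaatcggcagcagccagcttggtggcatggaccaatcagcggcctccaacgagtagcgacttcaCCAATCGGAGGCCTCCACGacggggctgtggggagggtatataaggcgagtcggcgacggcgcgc
Hsp90b1: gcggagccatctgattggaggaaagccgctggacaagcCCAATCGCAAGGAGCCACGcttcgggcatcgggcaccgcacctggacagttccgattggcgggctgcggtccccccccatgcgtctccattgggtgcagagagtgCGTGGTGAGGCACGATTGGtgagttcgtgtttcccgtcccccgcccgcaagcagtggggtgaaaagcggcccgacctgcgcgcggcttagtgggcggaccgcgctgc
Hspa5 held 1 match and Hsp90b1 held 2. The element was found in Calr, Canx, Hsp90b1, Hspa5 and Pdia6, 5 of the 26 members with a promoter, against 0.119% of all promoters. The log2 fold changes of these 5 genes lay between -0.01 and 0.28, and none passed the test.

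The genes of the unfolded protein response itself were slightly higher in value. Of the 4, 0 passed by limma, against 3.26% of all rows, and 1 had an unadjusted p under 0.05, against 15.3%. Atf6, the sensor that becomes a transcription factor after cleavage, was at 11.27, 10.81 and 10.98 in mutant ducts, against 10.47, 10.61 and 10.40 in control ducts. The groups did not overlap, and the log2 fold change was 0.53 ± 0.18 (SE, adjusted p = 0.185). Xbp1, whose transcript IRE1 splices, was at 13.11, 13.15 and 13.27 in mutant ducts, against 12.52, 12.77 and 13.04 in control ducts (log2 fold change 0.40 ± 0.18, adjusted p = 0.349). The array signal does not separate spliced from unspliced Xbp1. Ern1, which encodes IRE1, and Herpud1, an adaptor of ER-associated degradation, had log2 fold changes of 0.22 ± 0.16 and 0.36 ± 0.20. Over the 14 ER members, 13 log2 fold changes were above 0 (92.9%), against 48.5% of all rows, and 3 members had all mutant arrays above all control arrays (21.4%), against 10.9%.

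Genes of the same pathways outside the set were read beside these. Of 31 other cytosolic and mitochondrial chaperones and cochaperones, 0 passed by limma, against 3.26% of all rows. Their median log2 fold change was -0.03, and 1 had all mutant arrays above all control arrays (3.23%), against 10.9% of all rows. At an unadjusted p under 0.05 there were 4, against 15.3% of all rows. Of these 4, 2 were lower in value, the endothelial HSP70 relative Hspa12b at -0.63 ± 0.16 (SE, adjusted p = 0.0724) and Fkbp4, an HSP90 partner of steroid receptors, at -0.65 ± 0.21 (adjusted p = 0.163). The other 2 were higher in value, the chaperonin subunit Cct2 at 0.51 ± 0.19 (adjusted p = 0.242) and the muscle small heat shock gene Hspb7 at 0.54 ± 0.24 (adjusted p = 0.319). Of 23 other ER folding and degradation genes, 9 had all mutant arrays above all control arrays (39.1%), against 10.9% of all rows. In 2 all lay below, against 10.2%. Log2 fold changes were above 0 in 16 (69.6%), against 48.5% of all rows, with a median of 0.07. By limma 5 had an unadjusted p under 0.05, against 15.3%, and 1 passed at the adjusted threshold, against 3.26% of all rows. This was Ero1a, the oxidase that recharges disulphide isomerases and is also induced by hypoxia, at 11.59, 11.28 and 11.84 in mutant ducts, against 9.26, 9.85 and 9.64 in control ducts. It rose by 1.99 ± 0.21 (SE) on the log2 scale (adjusted p = 0.00122), and its call held in all 6 fits that left out 1 array. Edem1, which hands misfolded glycoproteins to degradation, was higher in value by 0.77 ± 0.18 on the log2 scale and missed the threshold (adjusted p = 0.0614).

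In the PERK arm and integrated stress response, 2 of 16 measured genes rose, against 2.59% of all rows, and none fell, against 0.666%. The median log2 fold change of the 16 genes was 0.27. The stress-inducible chromatin protein gene Nupr1 was at 10.22, 10.43 and 9.93 in mutant ducts, against 8.74, 8.93 and 8.60 in control ducts. Its log2 fold change was 1.43 ± 0.19 (SE, limma adjusted p = 0.00343), a call that held in all 6 fits that left out 1 array. Asns, asparagine synthetase, an ATF4 target, was at 12.91, 13.09 and 13.27 in mutant ducts, against 11.86, 12.11 and 12.25 in control ducts, and it rose by 1.02 ± 0.18 on the log2 scale (adjusted p = 0.0162). The Asns call held without mutant 1 or control 3 and was lost when any other array was left out (adjusted p up to 0.076). Slc7a11 and Sesn2 had the next smallest p, with log2 fold changes of -0.52 ± 0.17 (adjusted p = 0.165) and 0.47 ± 0.18 (adjusted p = 0.232), and Sesn2 lay below background on all 6 arrays and Slc7a11 on 5.

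Some immediate early genes, which respond to tissue handling among other stimuli, and most macrophage markers were called higher in mutant ducts too. Of 15 immediate early genes, 4 rose (Ier3, Fos, Egr1 and Klf6) and none fell. The other 11 did not pass, and 3 of the 15 log2 fold changes were below 0. Over all rows, 2.59% were called higher and 0.666% lower. The mean log2 signal of the 15 genes was between 8.91 and 9.17 in mutant ducts, against 8.10 to 8.64 in control ducts. Ier3 and Fos rose by 3.12 ± 0.27 and 1.71 ± 0.24 (SE, limma adjusted p = 0.000389 and 0.00449). The calls of Egr1 and Klf6 were lost in 3 and 5 of the 6 leave-one-out fits, where adjusted p reached 0.101 and 0.166. Egr1 lost its call without mutant 1, mutant 2 or control 2, and Klf6 without any array but control 3. Inducible HSP70 genes respond to tissue handling as well, and the part of handling in Hspa1a and Hspa1b was not tested. Of 9 macrophage markers, 8 rose, against 2.59% of all rows. The mean log2 signal of the 9 markers was from 9.90 to 10.29 in mutant and from 8.66 to 8.78 in control ducts. The part of macrophages in the rises of Hspa1a, Hspa1b, Hspa2, Hspa4l and Cryab was not tested. C1qc rose by 1.63 ± 0.16 (adjusted p = 0.000831) and C1qb by 1.52 ± 0.16 (adjusted p = 0.00105). The macrophage calls of Adgre1, Aif1 and Fcgr3 were each lost in at least 4 of those 6 fits (adjusted p up to 0.143). None of the skeletal muscle, epithelial, urothelial or erythroid markers passed the test.

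**Figure D5:**
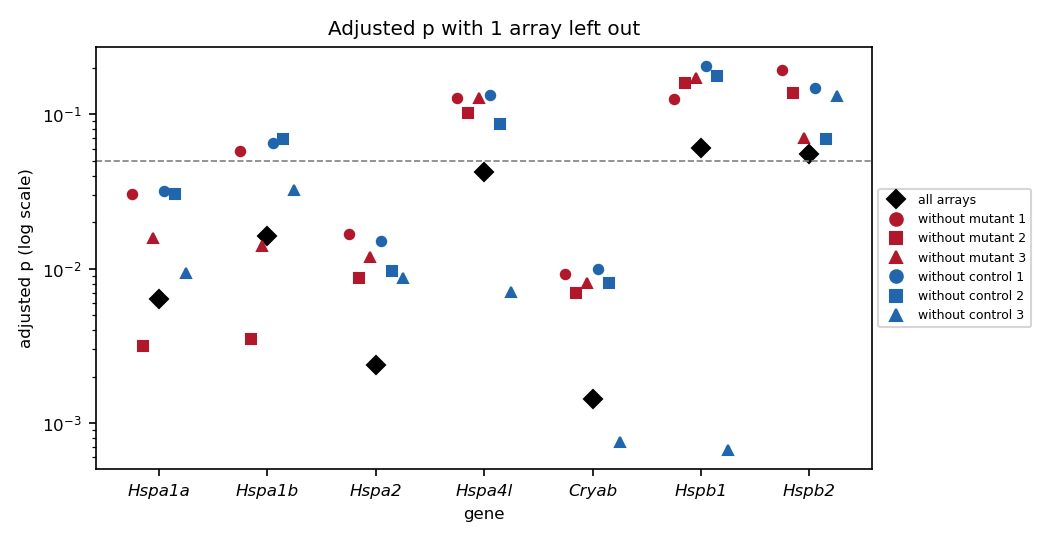
Adjusted p (log axis) of the 5 members called and of Hspb1 and Hspb2 with all arrays (diamonds) and with 1 array left out (coloured by group, shaped by replicate); the dashed line is the threshold of 0.05. All points of Hspa1a, Hspa2 and Cryab lie below the line, and Hspa4l and Hspb1 fall below it by far only without control 3.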

How the data were processed

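Müllerian ducts of 3 mutant and 3 control samples were profiled on Affymetrix arrays. The authors deposited 1 column of signals per array, which are on a log2 scale, judged from their range. Per the submitters' processing notes they used Transcriptome Analysis Console 4.0. The method of summarising and normalizing was not given in the sources used here. Values were used as deposited. The table held 28846 rows, and 6640 control and spike rows were left out. The median of the 23 antigenomic background probes of an array is its background. Symbols came from the platform table (19572 rows), and every measured member had 1 row. If several rows named a gene, the brightest was used.

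The other 22206 rows entered a linear model of genotype alone (lmFit, then eBayes, limma 3.58.1, R 4.3.3), two-sided, with Benjamini-Hochberg adjustment over all rows and a threshold of 0.05. The fit was tested on simulated arrays. Changes are log2 fold changes, mutant minus control, with limma standard errors and 95% intervals. The labels call the samples biological replicates and do not say whether ducts were pooled.

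Members and lists were chosen with earlier results of these data known, so counts and medians are given without a list test. Any member could be named, and from each other list the genes past the threshold and up to 4 with the smallest p. Promoters (RefSeq, GRCm38.p6) were matched by symbol. Python 3.11.15 with matplotlib 3.10.9 drew the figures. Alternatives were quantile normalization, a common median, 2 filters on dim rows, array weights, a robust trended prior, a block for replicate number, rows with a symbol, gene means, and each array left out.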

Additional observations from a re-analysis of the deposited data

How the results depend on the processing

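Hspa1a and Cryab were called under all 15 alternatives, and Hspa2 under every one that tested its row, since leaving out rows under the median signal removed it. Leaving out 1 array gave from 3 to 6 members called higher, none lower, and from 360 to 697 calls over all rows, with 360 without mutant 1, 384 without control 1 and 454 without control 2, against 723 with all arrays. The median log2 fold change then ran from 0.34 to 0.48 for the cytosolic and mitochondrial members and from 0.18 to 0.29 for the ER members. Of 478 member values under alternatives, 453 kept their direction and side of the threshold. Canx was at 0.01 with a common median and at 0.04 with array weights, and Hspe1 at 0.00 with array weights. With 1 array left out, Canx ran from -0.12 to 0.12, Hspe1 from -0.11 to 0.07, Dnajb1 from -0.24 to 0.04 and Serpinh1 from -0.06 to 0.21. For these 4 genes the sign is not settled. Hspb1 also passed with a common median (adjusted p = 0.0466), without rows under the median signal (0.0332) and with array weights (0.0409), and Hspb2 without rows under the 25th percentile (0.0438) and with array weights (0.033), the cause of which was not tested. Deviations of same-numbered arrays from their group means correlated at 0.01, 0.04 and 0.00. These values cannot settle whether replicate numbers pair the arrays, since single arrays also differ in markers, as control 3 did. The labels do not say how the numbers were given. With the replicate block, 7 members were called higher, 0 lower and 633 rows in all, the medians were 0.37 and 0.26, and the added members were Hspb1 (0.0301) and Hspb2 (0.0484). Genes near background, such as Hspb2, are limited by dim signal.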
